A study of Bos taurus with 16 samples.

Results

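Notch receptors, ligands and targets were followed through all RNA sequencing of the study by the names of 10 genes. These are the receptors NOTCH1, NOTCH2 and NOTCH3, the ligands JAG1, JAG2 and DLL1, the glycosyltransferase LFNG, the DNA-binding factor RBPJ and the targets HES1 and HEY1. All 10 names were found once in each of the 3 deposited tables, which list 38959, 37429 and 28303 genes. With 10 normalized counts on average over a table as the minimum for testing, 9 of the 10 were tested in the first blastocyst table, 8 in the second and all 10 in the stem cell table. DLL1 was below that minimum in both blastocyst tables, and NOTCH1 was below it in the second.

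The samples were 12 single bovine blastocysts, produced in vitro and taken at day 8, and 4 libraries of bovine embryonic stem cells (bESCs), all labelled wild type. LY2955303 (LY) is an inhibitor of retinoic acid receptor gamma. In the first blastocyst table, 3 LY10 blastocysts were cultured with 10 μM LY from the 2-cell stage, and 3 DMSO blastocysts with its solvent, and both groups had LIF, FGF2 and IGF1 in the medium. In the second table, 2 cell2_LY blastocysts had LY from the 2-cell stage, 2 cell16_LY blastocysts had it from the 16-cell stage, and 2 LY_DMSO blastocysts had the solvent; the dose is not in the labels of this table. In the third, 2 bESC_LY and 2 bESC_tifx libraries came from bESCs grown on mouse feeder cells in TiFX medium, which holds inhibitors of MEK, FGF receptors, DOT1L and GSK3 and the Wnt inhibitor IWR-1. The bESC_tifx label names the medium alone and no solvent and that of bESC_LY no dose, while the study's text describes LY at the dose of LY10 for several days and a DMSO control. Whether blastocysts or bESC libraries of a group came from separate cultures or cell lines is not in the labels, so p-values measure the spread between these samples only.

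Notch signaling passes between touching cells. A ligand of the Jagged or Delta family on one cell binds a Notch receptor on its neighbour, proteases including the gamma-secretase complex then cut the receptor, and its intracellular part enters the nucleus, where it joins RBPJ and switches on genes such as HES1 and HEY1. LFNG adds sugars to the receptor and changes which ligands it answers to. In mouse blastocysts the pathway is known to act beside Hippo signaling in the outer cells, where it contributes to the expression of the trophectoderm factor CDX2.

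A normalized count here is the number of reads on a gene, divided by the library size that the authors' values imply and set to the average library size of that table. FPKM divides further by gene length and allows levels of different genes to be compared within a table. Reads on genes ranged from 7905768 to 15137567 in the first blastocyst table, from 11336091 to 17343140 in the second and from 29055323 to 31230432 in the bESC table. A gene with 0 reads could have had up to 3 reads by counting error, at most 4.09, 3.50 and 3.18 normalized counts in the 3 tables, and this limit does not cover losses during amplification. DMSO blastocyst 3 stood apart from the other DMSO blastocysts, with Spearman correlations of 0.834 and 0.870 across genes, and for cell2_LY blastocyst 1 the implied library size was 1.23 times its reads on genes, against 0.949 to 1.07 times in all other libraries. Calls on the Notch genes and the pathway counts of each table that rest on these libraries are therefore also given without them. KRT8 led the trophectoderm markers in every blastocyst group, with summed trophectoderm FPKM of 2628 to 9977 per blastocyst, and POU5F1 led the epiblast markers in the bESCs, with summed epiblast FPKM of 1082 to 1207. Of the epiblast list, 4 of 6 genes were read from the bESC table, and SOX2 and UTF1 were not analysed here in bESCs.

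In DMSO blastocysts HES1 was the most abundant of the 10 genes per length, at 9.17 ± 0.639 FPKM (SD, n = 3), and its range did not reach that of any other member. HES1 encodes a transcriptional repressor and is the classic target of Notch. HEY1, at 2.88 FPKM, RBPJ, at 2.42, JAG1, at 2.40, and LFNG, at 1.85, followed. The receptors were low, with NOTCH2 at 0.690 FPKM, NOTCH1 at 0.286 and NOTCH3 at 0.159, and DLL1 was last at 0.146. From HEY1 downward each neighbour overlapped the next in DMSO blastocysts.

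LY_DMSO blastocysts of the second table gave a similar order, with HES1 first at 4.58 ± 0.516 FPKM (SD, n = 2), HEY1 at 2.45 and RBPJ at 2.28. NOTCH2 was again the most abundant receptor, at 0.806 FPKM, and its range lay above that of DLL1, the next gene. NOTCH3 and NOTCH1 were last, at 0.0446 and 0.0341 FPKM, and overlapped. HES1 was first in all 5 blastocyst groups, without overlap with the gene in second place. The blastocyst tables give RBPJ a length of 41451 bases and the bESC annotation one of 1530, so its place in each order depends on the gene model.

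In bESCs the order was different. RBPJ, at 35.9 FPKM, and LFNG, at 34.3, led the bESC_tifx group, followed by NOTCH1 at 27.5, NOTCH3 at 20.7, JAG2 at 18.5, JAG1 at 17.5 and HES1 at 13.0. From LFNG to HES1 each neighbour in this order overlapped the next between the 2 libraries. NOTCH2, at 4.16 FPKM, HEY1, at 1.77, and DLL1, at 0.858, were lower without overlap.

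Levels in RPM scale reads by library size and not by gene length, but the reads counted still depend on the gene model. That of RBPJ has 41451 bases for blastocysts and 1530 for bESCs, and that of NOTCH2 has 20676 and 8014. The part of the gene models in the levels below was not tested. The mean of NOTCH1 was 2.79 RPM in DMSO blastocysts, 0.333 in LY_DMSO blastocysts and 225 in bESC_tifx. NOTCH3 stood at 1.30, 0.364 and 169 RPM, JAG2 at 1.73, 0.728 and 76.9, and LFNG at 4.24, 2.64 and 102. RBPJ and HEY1 went the other way, with RBPJ at 100.2, 94.4 and 54.9 RPM and HEY1 at 3.75, 3.19 and 2.30. The bESC libraries were prepared with another RNA method, counted on another annotation and normalized separately, so these levels are set side by side and were not tested.

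**Figure D1:**
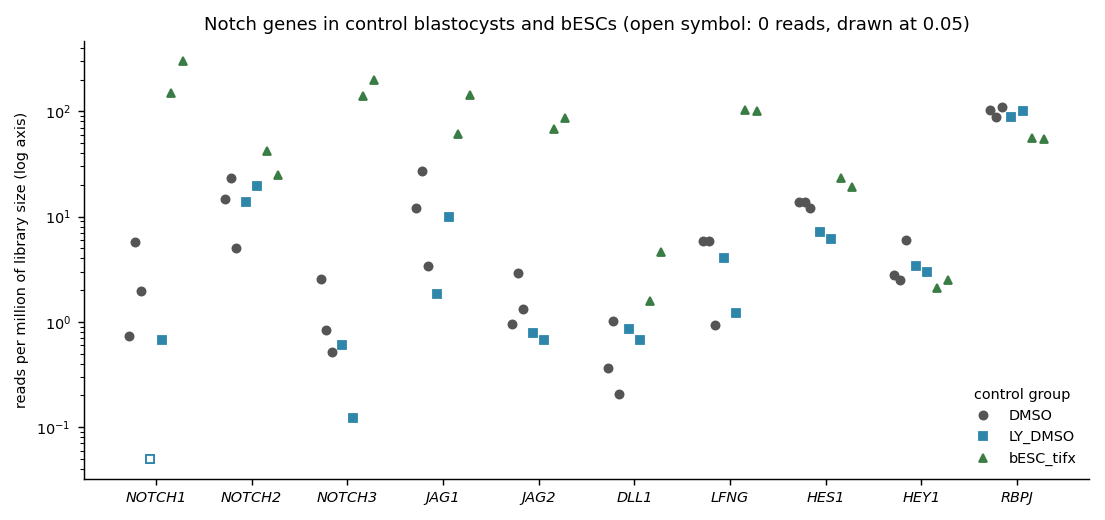
Reads scaled by library size (RPM, log axis) for the 10 Notch genes in each control library: 3 DMSO and 2 LY_DMSO blastocysts and 2 bESC_tifx libraries, from 3 separately normalized tables. The 3 receptors, the 3 ligands, LFNG and HES1 are higher in both bESC libraries than in every control blastocyst. RBPJ and HEY1 are lower, and the gene model of RBPJ has 41451 bases for the blastocysts and 1530 for the bESCs. The open symbol is a blastocyst with 0 reads of NOTCH1, drawn at 0.05.

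The first question was whether LY from the 2-cell stage changed these genes in the first blastocyst experiment. NOTCH1 fell, the 8 other tested members did not pass, and 8 of the 9 tested members had lower estimates in LY10 than in DMSO. A gene is said to rise or fall when the unadjusted p of limma's test was below 0.05 and the absolute log2 fold change above 1, the threshold the study states for its volcano plot. At this threshold 6.2% of the 14249 tested genes rose and 8.51% fell, so 1 of 9 members falling is close to the share of all genes. The median log2 fold change was -0.58 over the 9 members and -0.054 over all tested genes, and with quantile normalization these were -0.13 and 0.072. NOTCH1 and NOTCH3 reached the minimum for testing through DMSO and averaged below it in LY10. The fall of NOTCH1 and the counts over tested members are therefore a description only. Over all genes 2 had a Benjamini-Hochberg adjusted p below 0.05, none of them a member. In whole blastocysts, fewer cells of a type and less RNA per cell cannot be told apart.

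NOTCH1 lies on chromosome 11, from 103934022 to 103980133 on the minus strand of ARS-UCD2.0. Its normalized counts were 7.76, 60.7 and 20.8 in DMSO blastocysts and 0, 2.68 and 3.88 in LY10 blastocysts. All 3 LY10 blastocysts were below all 3 DMSO blastocysts, and DMSO blastocyst 2 held most of the NOTCH1 reads. Such separation of the groups was found for 1 of the 9 members and 28.1% of all genes. The means were 29.7 ± 27.6 and 2.19 ± 1.99 (SD, n = 3), with a log2 fold change of -3.12 (SE 1.14) on log2(normalized count + 1) and an adjusted p of 0.158 by limma. In reads, the difference was 90 in DMSO against 7 in LY10, a ratio of 0.0832 per library size, for which exact counting error alone gives 0.0325 to 0.179 at 95%. Without DMSO blastocyst 2 the mean of NOTCH1 fell below the minimum for testing, and without LY10 blastocyst 1 the log2 fold change was -2.44 and did not pass. NOTCH1 also failed to pass with voom weights (-3.15) and with quantile normalization (-2.28).

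Markers of other cell types moved beside NOTCH1. The 5 tested of 7 fibroblast markers were all lower in LY10, 2 of them past the threshold (COL1A2 and DCN), and the summed list was 23.9 to 91.0 FPKM per DMSO blastocyst and 6.10 to 11.7 per LY10 blastocyst. LUM, a matrix proteoglycan, led that list, and none of the 7 genes was at 0 in either group. The fibroblast sum was highest in DMSO blastocyst 3, whereas NOTCH1 was highest in DMSO blastocyst 2, as was the summed oocyte list, at 52.5, 98.3 and 18.0 FPKM in DMSO and 12.7 to 21.9 in LY10. Of the tested markers of other lists, POU5F1 (1 of 6 epiblast) and PDGFRA and HNF4A (2 of 6 hypoblast) rose in LY10, OOEP (1 of 2 oocyte) fell, and no trophectoderm marker passed. The part of such cells in the result was not tested.

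NOTCH2, the most abundant receptor, had normalized counts of 155, 247 and 53.6 in DMSO and of 15, 83.1 and 62.2 in LY10. DMSO blastocyst 3 lay among the LY10 blastocysts, and the other DMSO blastocysts were above all of them. The log2 fold change was -1.55 (SE 0.74, limma adjusted p = 0.252). JAG1, a membrane ligand, followed the same blastocysts, with 128, 286 and 36.1 normalized counts in DMSO and 10.9, 74.4 and 49.2 in LY10, and its log2 fold change of -1.64 (SE 0.87, adjusted p = 0.291) did not pass. LFNG was at 62.9, 62.7 and 9.85 in DMSO and at 13.6, 32.8 and 29.8 in LY10, again with DMSO blastocyst 3 below the others. Without DMSO blastocyst 3, 4 members fell, namely NOTCH1 (-3.16), NOTCH2 (-2.16), JAG1 (-2.43) and LFNG (-1.36). Of all 14298 genes tested in that setting, 1350 rose and 2106 fell, 24.2% in either direction. The summed trophectoderm markers of DMSO blastocyst 3 were 7080 FPKM, against 3191 and 2628 in the other DMSO blastocysts and 3984 to 9977 in LY10.

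The targets and RBPJ differed less. HES1 had normalized counts of 147, 145 and 129 in DMSO and of 151, 77.1 and 98.4 in LY10, so that LY10 blastocyst 1 was above all DMSO blastocysts and the other LY10 blastocysts were below them. Its log2 fold change was -0.42 (SE 0.35, adjusted p = 0.494), with a 95% interval of -1.20 to 0.37. HEY1, a repressor related to HES1, ranged from 26.9 to 63.5 in DMSO and from 15.5 to 38.2 in LY10. RBPJ ranged from 938 to 1157 in DMSO and from 908 to 1130 in LY10, with a log2 fold change of -0.03 and an interval of -0.52 to 0.46. The narrow interval of RBPJ goes with its high read numbers.

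The remaining members were close to the limits of counting. NOTCH3 had 9 to 35 reads in 2 of the DMSO blastocysts and 3 to 9 reads in all others, and its groups overlapped. JAG2, at 10.1 to 30.8 normalized counts in DMSO and 11.4 to 32.4 in LY10, was the 1 tested member with a higher estimate in LY10, at 0.37 (SE 0.70, adjusted p = 0.775). DLL1 had 5, 11 and 2 reads in DMSO and 0, 5 and 2 in LY10. Its summed reads stood at a ratio of 0.416 (counting interval 0.147 to 1.04), so a difference was not detectable at this depth.

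**Figure D2:**
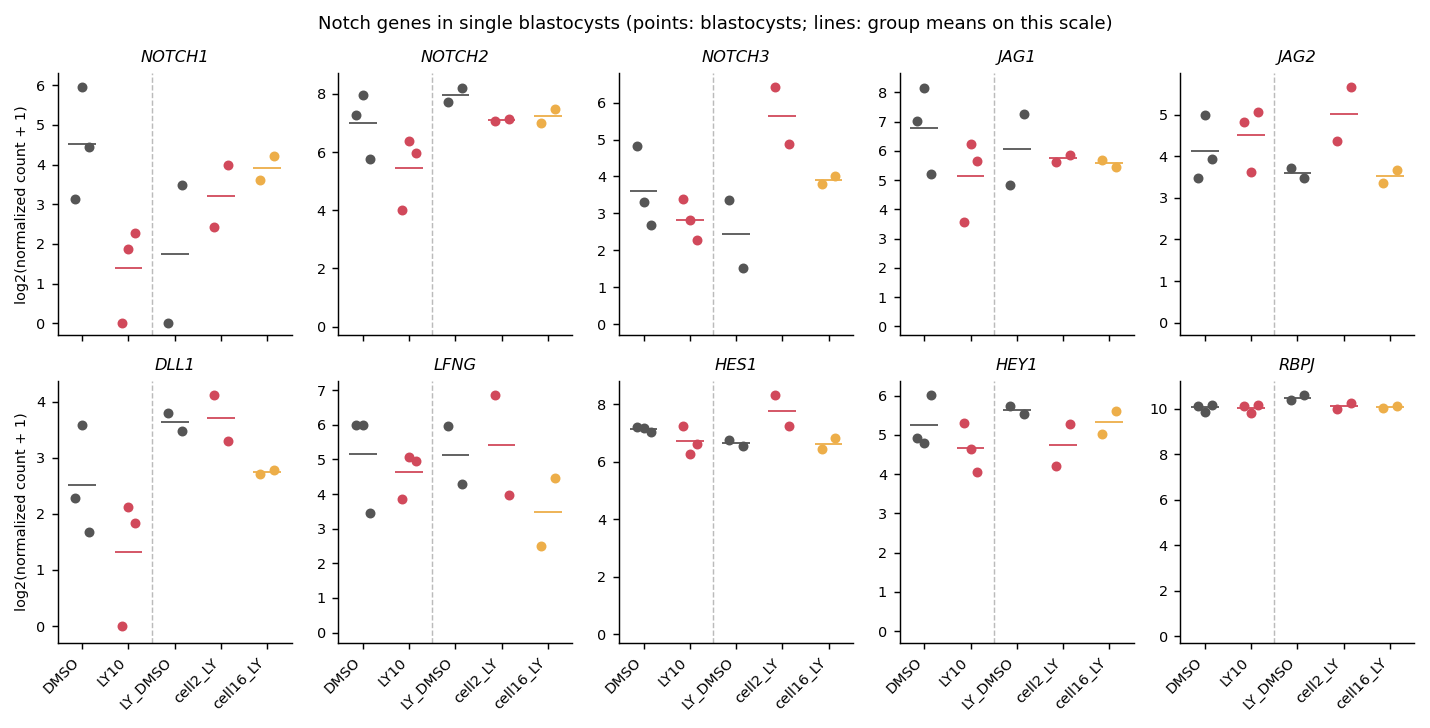
log2(normalized count + 1) of the 10 Notch genes in the 12 single blastocysts, with a line at each group's mean on that scale; the dashed line separates the 2 tables, which were normalized separately. NOTCH1 is lower in all LY10 than in all DMSO blastocysts, and NOTCH3 and HES1 are higher in both cell2_LY blastocysts than in LY_DMSO and cell16_LY.

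A list of 60 other genes of the Notch pathway gave 43 that could be tested in LY10 against DMSO. Of these, 2 rose and 3 fell, and the groups of 15 did not overlap. Over all tested genes 6.2% rose, 8.51% fell and 28.1% did not overlap. Without DMSO blastocyst 3, 3 of the list rose and 6 fell, where 1350 of all 14298 genes rose and 2106 fell, 24.2% in either direction. HDAC1, a histone deacetylase found in repressor complexes, had 2019 to 3567 normalized counts in DMSO and 7700 to 9903 in LY10 (log2 fold change 1.59, SE 0.26, adjusted p = 0.0783). PSENEN, a subunit of gamma-secretase, fell from 1508 to 2390 down to 858 to 966 (-1.12, SE 0.23). TLE1, a corepressor of the Groucho family, fell from 160 to 191 down to 61.7 to 83.2 (-1.32, SE 0.32). The Notch target HEY2 fell from 17.9 to 62.4 down to 3.35 to 6.47 (-2.71, SE 0.74). HEY2 reached the minimum for testing through DMSO and averaged 5.09 in LY10. Its fall, and the count that includes it, are therefore a description only. The acetyltransferase KAT2A rose from 23.0 to 30.8 up to 44 to 76.4 (1.07, SE 0.45). None of the 43 had an adjusted p below 0.05, and 10 had an unadjusted p below 0.05, where 22.9% of all genes had one. The median log2 fold change of the list was -0.24.

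The second experiment gave LY from the 2-cell stage to other embryos. NOTCH3 and HES1 rose in cell2_LY over LY_DMSO, no member fell, and 4 of the 8 tested members had lower estimates. In this comparison 8.71% of the 14529 tested genes rose and 8.34% fell. The members' median log2 fold change was -0.015, against 0.0029 over all genes. Groups did not overlap for 6 of 8 members, where 53.7% of all genes did not overlap with 2 libraries against 2.

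NOTCH3 lies on chromosome 7, from 7910617 to 7950466 on the plus strand. It had 84.1 and 28.6 normalized counts in cell2_LY, from 77 and 29 reads, and 9.27 and 1.85 in LY_DMSO, from 10 and 2 reads. Both cell2_LY blastocysts were above both LY_DMSO blastocysts. NOTCH3 reached the minimum for testing through cell2_LY, the other 4 blastocysts of the table lying at 1.85 to 15.2. Its rise is therefore a description only. The means were 56.3 ± 39.2 and 5.56 ± 5.25 (SD, n = 2), with a log2 fold change of 3.21 (SE 0.99, limma adjusted p = 0.11). Without cell2_LY blastocyst 1 the log2 fold change was 2.46 and no longer passed.

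HES1 lies on chromosome 1, from 73362774 to 73365254 on the minus strand. Its normalized counts were 317 and 149 in cell2_LY, 108 and 92.4 in LY_DMSO. Both cell2_LY blastocysts were above both controls, the first by more. HES1 had means of 233 ± 119 and 100.4 ± 11.3 (SD, n = 2), a log2 fold change of 1.11 (SE 0.46) and an adjusted p of 0.186. This value was 0.57 without cell2_LY blastocyst 1, and no member then passed. The call on HES1 held in 1 of the 6 fits that left out a blastocyst of this table.

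NOTCH2 was lower in both cell2_LY blastocysts, at 133 and 138 normalized counts, than in both LY_DMSO blastocysts, at 211 and 297. Its log2 fold change of -0.88 (SE 0.38, adjusted p = 0.194) had an unadjusted p below 0.05 but was short of the size set by the threshold. JAG2 was at 19.7 and 49.3 in cell2_LY and at 12 and 10.2 in LY_DMSO (1.42, SE 0.85, adjusted p = 0.334). HEY1, at 17.5 and 37.5 against 51.9 and 45.3, and RBPJ, at 1016 and 1215 against 1346 and 1533, were lower in both cell2_LY blastocysts, with log2 fold changes of -0.89 and -0.37 that did not pass.

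For JAG1 the LY_DMSO blastocysts differed from each other more than from the treated ones, and for LFNG the blastocysts of both groups lay far apart. JAG1 had 27.8 and 152 normalized counts in LY_DMSO and 48.0 and 57.2 in cell2_LY, and LFNG had 62.1 and 18.5 in LY_DMSO and 115 and 14.8 in cell2_LY. NOTCH1 had 4 and 15 reads in cell2_LY and 0 and 11 in LY_DMSO, a ratio of 1.93 (counting interval 0.875 to 4.5). DLL1 had 15 and 9 reads against 14 and 11, a ratio of 1.08 (0.588 to 1.96).

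Some trophectoderm markers also rose in cell2_LY. Of the 9, 3 rose in cell2_LY (CDX2, GATA2 and KRT19) and 0 fell, and none was at 0 in either group. The summed list was 5586 and 8085 FPKM in cell2_LY and 5089 and 4016 in LY_DMSO. This sum was higher in cell2_LY blastocyst 2, whereas NOTCH3 and HES1 were higher in cell2_LY blastocyst 1. Of the tested markers of other lists, DPPA3 (1 of 6 epiblast) and PDGFRA (1 of 6 hypoblast) fell, and none rose. The part of a larger share of trophectoderm cells was not tested.

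Of the other pathway genes 44 were tested in this table, and 8 rose and 2 fell in cell2_LY. Over all tested genes 8.71% rose and 8.34% fell. FURIN, a protease that cuts the Notch precursor, rose most, from 115 and 124 normalized counts in LY_DMSO to 947 and 355 in cell2_LY (2.27, SE 0.48, adjusted p = 0.0743). The receptor glycosyltransferase RFNG (1.76), the gamma-secretase subunit APH1A (1.74), the corepressor CTBP1 (1.74), MYC (1.70) and the HES family gene HES6 (1.03) rose as well, and their groups did not overlap. SNW1, a nuclear partner of RBPJ and the Notch intracellular part, fell from 4311 and 4136 to 1459 and 2329 (-1.20, SE 0.29), and HDAC1 fell from 14623 and 8236 to 5763 and 4423 (-1.12, SE 0.34). MIB2 and DTX2, both ubiquitin ligases, completed the 8 that rose. When reads on genes replaced the implied library size, all genes shifted up by a median of 0.24, and 10 of the list rose and 0 fell. Of all 14561 genes tested in that setting, 1842 rose and 674 fell. With quantile normalization 7 rose and 0 fell, and without cell2_LY blastocyst 1, 6 rose and 1 fell. None of the 44 had an adjusted p below 0.05.

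**Figure D3:**
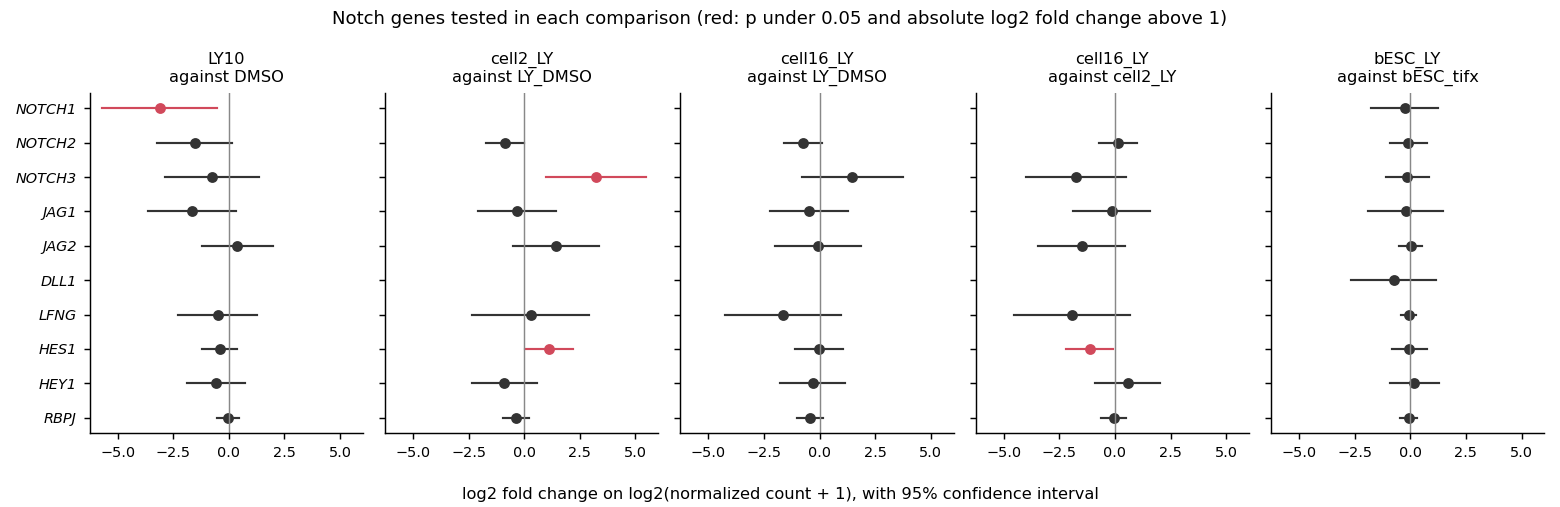
log2 fold changes of the tested Notch genes on log2(normalized count + 1), with 95% confidence intervals from limma, in the 5 comparisons; red marks p below 0.05 with an absolute log2 fold change above 1. NOTCH1 in LY10, NOTCH3 and HES1 in cell2_LY and HES1 in cell16_LY against cell2_LY are past this threshold, and no gene is in bESCs.

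LY from the 16-cell stage was compared with the same LY_DMSO blastocysts, so its values share their controls with those of cell2_LY. No member passed the threshold by limma, where 3.25% of all genes rose and 1.97% fell, and 0 members had an unadjusted p below 0.05 or passed with voom weights. The members' median log2 fold change was -0.37, against -0.0059 over all genes, and 7 of the 8 had lower estimates. NOTCH2 was at 127 and 176 normalized counts, below both LY_DMSO blastocysts (-0.74, SE 0.38, adjusted p = 0.703). RBPJ, at 1031 and 1097, was also below both (-0.43, SE 0.25, adjusted p = 0.734), while NOTCH3, at 13.0 and 15.2, was above both (1.48, SE 0.99, adjusted p = 0.762). These 3 were the members without overlap, where 42.9% of all genes had none.

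HES1 stood at 86.5 and 112 normalized counts in cell16_LY and at 108 and 92.4 in LY_DMSO, with a log2 fold change of -0.02 and a 95% interval of -1.08 to 1.04. JAG2 stood at 9.30 and 11.7 and overlapped the controls. LFNG was at 4.65 and 21.0, with a log2 fold change of -1.65 and an interval of -4.27 to 0.96, wide with 2 libraries that differed from each other. JAG1 and HEY1 overlapped the controls as well, JAG1 at 51.1 and 43.2 and HEY1 at 31.6 and 47.8. JAG1 turned with the control left out, at -1.68 and past the threshold without LY_DMSO blastocyst 1 (adjusted p = 0.364) and at 0.74 without LY_DMSO blastocyst 2.

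Of the low members, NOTCH1 had 12 and 15 reads in cell16_LY against 0 and 11 in LY_DMSO, a ratio of 2.74 (counting interval 1.32 to 6.13, without the spread between embryos). DLL1 had 6 and 5 reads against 14 and 11, a ratio of 0.492 (0.218 to 1.04). Of the 44 other pathway genes 1 rose, APH1A (178 and 167 normalized counts, against 72.3 and 71.2 in LY_DMSO), and 1 fell, KAT2A (60.4 and 63.0, against 130 and 122). The shares over all genes were 3.25% and 1.97%. Both calls were lost without cell16_LY blastocyst 1 and also without cell16_LY blastocyst 2.

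The question of the start stage was put by testing cell16_LY against cell2_LY directly, with 2 blastocysts in each group. No gene had an adjusted p below 0.05 by limma, the smallest being 0.186. HES1 was lower in cell16_LY than in cell2_LY, with a log2 fold change of -1.13 (SE 0.46, limma adjusted p = 0.258), and no other member passed. In this comparison 5.58% of all genes rose and 5.77% fell. The members' median log2 fold change was -0.65 and that of all genes 0.036, with 6 of 8 members lower under the implied library size, 7 with reads on genes as library size and 5 with quantile normalization. NOTCH3 (-1.74, SE 0.99, adjusted p = 0.375) and JAG2 (-1.50, SE 0.85, adjusted p = 0.375) were lower in both cell16_LY than in both cell2_LY blastocysts but did not pass. With HES1 these were the 3 members without overlap, against 54.5% of all genes. LFNG had the lowest estimate, -1.94, with an interval from -4.55 to 0.67.

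The size of the difference depended on cell2_LY blastocyst 1. Without it the log2 fold change of HES1 was -0.59 and 0 members passed, and 0 passed without either of the cell16_LY blastocysts. NOTCH2, at 0.14 (SE 0.38), and RBPJ, at -0.06 (SE 0.25), had estimates near 0, with intervals of -0.72 to 1.00 and -0.64 to 0.51. Of the 9 trophectoderm markers, 2 were lower in cell16_LY than in cell2_LY (CDX2 and GATA2) and 0 were higher. KRT19 was not past the threshold, and 2 of the 9 had higher estimates in cell16_LY, up to 2.45. The summed list was 6085 and 5749 FPKM in cell16_LY and overlapped that of cell2_LY, at 5586 and 8085. Of the 6 epiblast markers, 1 was lower past the threshold, 0 were higher past it, and 2 had higher estimates. The part of either cell type in the HES1 difference was not tested.

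Of 44 other pathway genes, 7 were lower in cell16_LY than in cell2_LY and 1 was higher. Over all tested genes 5.77% were lower and 5.58% higher. TLE3, a Groucho corepressor, was at 373 and 521 normalized counts in cell16_LY and at 1130 and 980 in cell2_LY (-1.25, SE 0.30, adjusted p = 0.191). FURIN (-1.89), the ubiquitin ligases MIB2 (-1.68) and DTX2 (-1.13), KAT2A (-1.28), RFNG (-1.14) and CTBP1 (-1.08) were the others that were lower. POGLUT1, which adds glucose to the receptor, was higher (1.58, SE 0.67). The count of the list was 4 without cell2_LY blastocyst 1, 2 without cell16_LY blastocyst 1 and 3 without cell16_LY blastocyst 2.

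Both blastocyst experiments had a group with LY from the 2-cell stage, and the difference between their LY effects was tested in a fit of all 12 blastocysts, each table on its own scale. NOTCH3 and HES1 were past the unadjusted threshold. NOTCH3 reached the minimum for testing through DMSO in the first table and through cell2_LY in the second. Its difference, and the count of members that includes it, are therefore a description only. The effect on NOTCH3 was -0.77 in LY10 and 3.21 in cell2_LY, a difference of -3.99 (SE 1.33, limma adjusted p = 0.0818). For HES1 it was -0.42 in LY10 and 1.11 in cell2_LY, a difference of -1.53 (SE 0.57, adjusted p = 0.116). At the same threshold 9.72% of the 13019 genes tested in both tables had a lower effect in LY10 and 13.8% a higher one, while 2 of the 8 members had a lower effect and 0 a higher one. Neither member was past the threshold without cell2_LY blastocyst 1, where the differences were -3.23 and -0.98, or without LY_DMSO blastocyst 2, where they were -3.06 and -1.41. NOTCH2, JAG1, HEY1 and RBPJ had lower estimates with LY in both experiments, but that of RBPJ in LY10 changed sign under 3 of 17 other settings and that of JAG1 in cell2_LY was 0.89 without LY_DMSO blastocyst 2.

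Among the other pathway genes the difference reached an adjusted p below 0.05 for 6 of 43, and for 1106 of all 13019 genes. HDAC1 was the clearest, with 1.59 in LY10 and -1.12 in cell2_LY, a difference of 2.71 (SE 0.44, adjusted p = 0.0117). Its level in the 2 control groups was not alike, at 86.3 to 152 FPKM in DMSO and 246 to 437 in LY_DMSO, though these come from separately normalized tables. SNW1 had a difference of 2.07 in the same direction, with 36.5 to 56.6 FPKM in DMSO and 93.2 to 97.2 in LY_DMSO. APH1A (-2.36), HES6 (-2.02), TLE1 (-1.66) and the acetyltransferase CREBBP (-1.45) had lower effects in LY10 than in cell2_LY. The control levels of these genes were not alike either, with all DMSO blastocysts above both LY_DMSO blastocysts. The lowest DMSO and highest LY_DMSO values were 3.53 and 2.27 FPKM for APH1A and 2.02 and 1.13 for HES6. For TLE1 they were 9.23 and 4.44 FPKM, and for CREBBP 5.68 and 4.37.

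**Figure D4:**
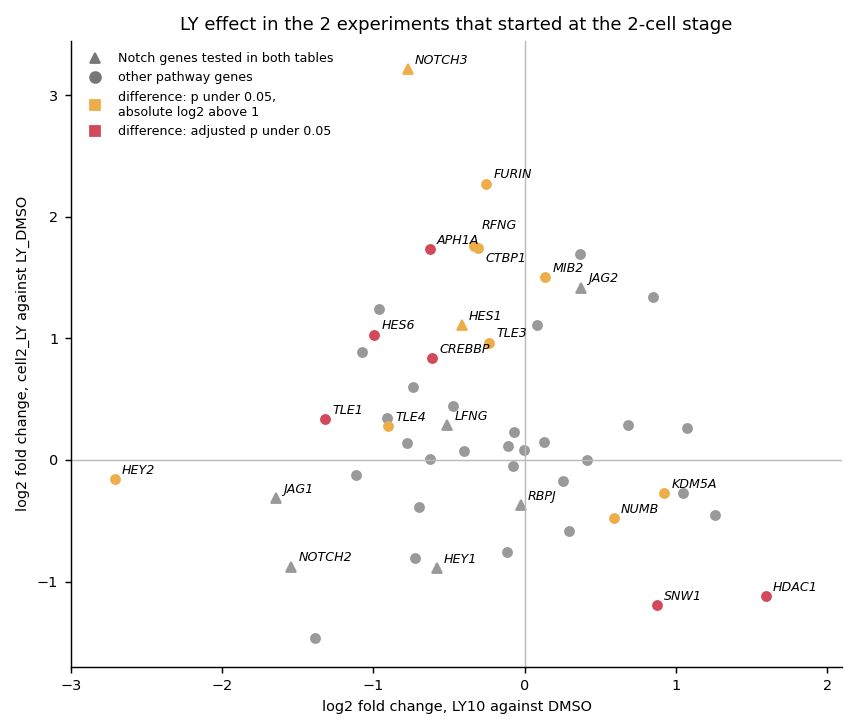
log2 fold change in LY10 against DMSO (x axis) and in cell2_LY against LY_DMSO (y axis) for the Notch genes (triangles) and other pathway genes (circles) tested in both tables. HDAC1 and SNW1 lie at the lower right and APH1A, HES6, CREBBP and TLE1 at the upper left, the 6 genes (red) whose difference has an adjusted p below 0.05; yellow marks an unadjusted p below 0.05 with a difference above 1, including NOTCH3 and HES1.

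The bESCs had far more reads on most of the members, and no member passed the threshold in bESC_LY against bESC_tifx by limma or with voom weights. None had an unadjusted p below 0.05 in the limma fit, which takes no account of the library number. Over all genes 0.0375% rose and 0.0375% fell, 16 of 16012 had an unadjusted p below 0.05, and 2 of 10 members were without overlap, against 14.2% of all genes. The members' median log2 fold change was -0.088, and -0.0072 over all genes. All 10 estimates lay between -0.74 (DLL1) and 0.18 (HEY1).

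The intervals were narrow for some members and wide for others. LFNG had 3161 and 3054 normalized counts in bESC_tifx and 2888 and 3015 in bESC_LY, a log2 fold change of -0.07 with a 95% interval of -0.42 to 0.27. RBPJ (1690 and 1662 against 1523 and 1655) had an interval of -0.46 to 0.30, and JAG2 (2081 and 2615 against 2114 and 2625) one of -0.52 to 0.54. For these 3 a change of the size set by the threshold lies outside the interval. The same holds for NOTCH2 (-0.93 to 0.73) and HES1 (-0.82 to 0.74). NOTCH1 had 4536 and 9234 normalized counts in bESC_tifx and 3451 and 8516 in bESC_LY, with an estimate of -0.26 and an interval of -1.76 to 1.25. With the library number as a block, NOTCH1 kept this estimate with an adjusted p of 0.00284 by limma, still short of the size set by the threshold. In that fit 116 of all 16012 genes had an adjusted p below 0.05, and no label ties the numbers to a shared source.

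The width for NOTCH1 came with the number of the library. In both groups the library numbered 3 was above the library numbered 2, by a ratio of 2.04 in bESC_tifx and 2.47 in bESC_LY. JAG1 had 1856 and 4397 normalized counts in bESC_tifx libraries 2 and 3 and 1529 and 4005 in bESC_LY libraries 2 and 3, ratios of 2.37 and 2.62. DLL1 had 48.4 and 140 in bESC_tifx and 32.8 and 72.7 in bESC_LY, ratios of 2.89 and 2.22. For these 3 members library 3 was higher by a log2 difference above 1 in both groups, which holds for 4.81% of all tested genes, and no member was lower by as much in both, against 3.95%. NOTCH3 was also higher in library 3 (4256 and 6087 in bESC_tifx, 3417 and 6338 in bESC_LY), and NOTCH2 was lower in it (1273 and 766, 1046 and 812). What the numbers stand for is not in the labels, so the difference between them was not tested.

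Markers moved with the number as well. The summed trophectoderm list was 449 and 395 FPKM in the libraries numbered 2 and 147 and 134 in those numbered 3, and the summed hypoblast list, led by FN1, was 31.1 and 32.6 against 121 and 122. The epiblast list changed less, from 1190 and 1207 to 1082 and 1128. Within a number, 5 of the 10 members were lower in bESC_LY in both pairs, and JAG2 was higher by 0.022 and 0.0052. HES1 (711 and 584 in bESC_tifx, 789 and 497 in bESC_LY) and HEY1 (63.9 and 76.7, 103 and 61.2) were higher in bESC_LY library 2 and lower in bESC_LY library 3. Of 58 other pathway genes tested, 0 rose or fell and 0 had an unadjusted p below 0.05. Over all tested genes 0.0375% rose and 0.0375% fell.

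**Figure D5:**
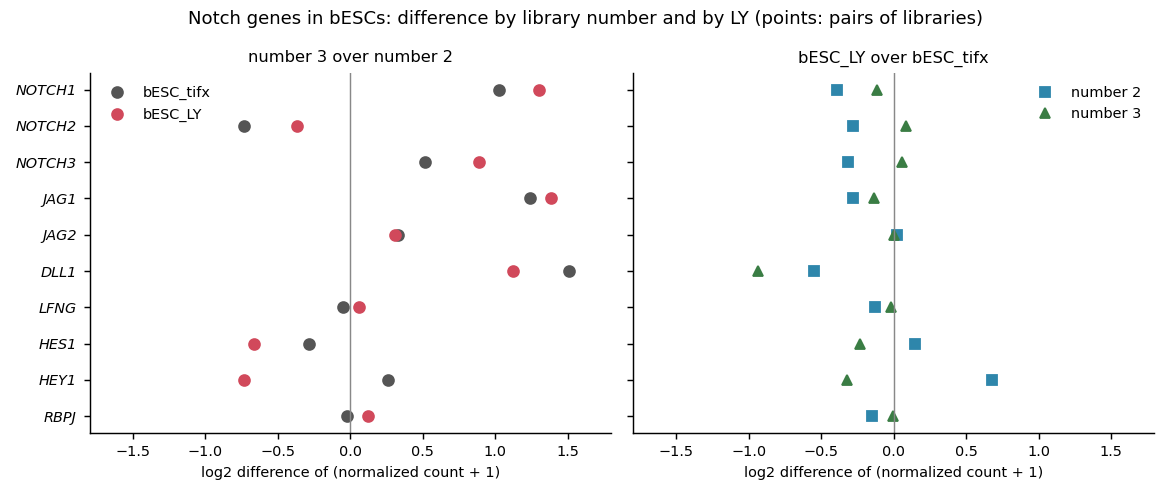
Differences of log2(normalized count + 1) for the 10 Notch genes in bESCs: library 3 minus library 2 within each group (left), and bESC_LY minus bESC_tifx within each library number (right). NOTCH1, JAG1 and DLL1 are above 1 on the left in both groups, while on the right all values lie between -0.94 and 0.68.

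Across the 12 blastocysts, after each table was centred on its own mean, some members varied together. NOTCH2 and JAG1 had a Pearson correlation of 0.91 (0.993 in the first table and 0.497 in the second), NOTCH3 and HES1 one of 0.787 (0.588 and 0.848), and LFNG and HES1 one of 0.516. The other 25 of 28 pairs were at or below 0.494, and the lowest was -0.576, for NOTCH3 and RBPJ. These values are descriptions over 12 libraries that include treated blastocysts, and both genes of a pair share the depth and quality of each library.

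By the same measure, over 9325 or 9326 genes with a mean of at least 50, the gene most like each member was found. It was CTBP1 for NOTCH3 (r = 0.965), HDAC2 for NOTCH2 (0.935), LOC112449367 for JAG1 (0.934), HERPUD2 for JAG2 (0.953) and MBTD1 for LFNG (0.915). For HES1 it was TMEM259 (0.979), for HEY1 LOC132343529 (0.889) and for RBPJ MED11 (0.937). The highest of so many values is high by selection, and 5% of all candidates were above 0.503 to 0.697, depending on the member.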

How the data were processed

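Single blastocysts were sequenced after SMART-Seq amplification and bESC RNA after column extraction. The deposited tables hold FPKM per gene, which the authors computed from mapped reads and gene length. The submitters' processing notes name HISAT2 2.0.5, StringTie 1.3.3b, featureCounts 1.5.0-p3 and DESeq2 1.20.0, while the methods name STAR as well as HISAT2. Strandedness is not given in the sources used here, so sense and antisense reads cannot be told apart. FPKM times gene length gave whole reads within 0.02 of an integer for 100% of values, up to 1 factor per library. The normalized count is these reads over the implied library size, times the geometric mean of the library sizes in a table. Gene coordinates are those of the blastocyst tables, and 98.8% of 36219 genes with an NCBI identifier had the same start and end in RefSeq's ARS-UCD2.0.

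In R 4.3.3, limma 3.58.1 was run on genes averaging 10 normalized counts or more in a table (linear model, moderated with an intensity trend), using log2(normalized count + 1). The second blastocyst table was fitted with its 3 groups together. P-values were adjusted over all genes tested. The fit was tested on simulated data. All members were named whatever their values, and of the other pathway genes those past the threshold, at most 8 per comparison by p, MIB2 and DTX2 in cell2_LY being added after their values were seen. The members, pathway genes and markers were chosen with earlier results of these data known. Alternatives changed the pseudocount, the minimum, the scaling, weights, the replicate block and the libraries included. Every sample carries the same batch label, so no batch was compared. No count model was run, and no sequence was used here.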

Additional observations from a re-analysis of the deposited data

Results flagged for a closer look

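The values here are listed because the effect of LY differed between the 2 blastocyst experiments, or between start stages, in limma's test of the difference itself. Among the Notch genes, the effect in LY10 minus that in cell2_LY was -3.99 for NOTCH3 (adjusted p = 0.0818) and -1.53 for HES1 (adjusted p = 0.116). Neither passed the adjustment over all genes. The value of NOTCH3 is a description only, since it reached the minimum for testing through DMSO in one table and through cell2_LY in the other.

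Among the other pathway genes the same difference was -2.36 for APH1A, 2.07 for SNW1, -1.45 for CREBBP, 2.71 for HDAC1, -1.66 for TLE1 and -2.02 for HES6, each with an adjusted p below 0.05. Of all 13019 genes tested, 1106 had an adjusted p below 0.05 in this difference. HES1 is listed for the start stage as well, with an effect from the 16-cell stage minus that from the 2-cell stage of -1.13 on the log2 scale (adjusted p = 0.258 by limma). This contrast shares its control blastocysts, which cancel in it.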

How the results depend on the processing

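The number of Notch genes past the threshold in LY10 was 1, and became 2 with no minimum, 0 with a minimum mean of 50, with quantile normalization, with log2(FPKM + 1) and with voom weights, 3 with sample weights, and 0 to 4 when 1 blastocyst was left out. In cell2_LY it was 2, and became 1 with a minimum mean of 50, with sample weights and with only the groups compared, 0 with log2(FPKM + 1), and 0 to 3 when 1 blastocyst was left out. In cell16_LY it was 0, and 0 to 1 with 1 left out. In cell16_LY against cell2_LY it was 1, and became 0 with quantile normalization and with log2(FPKM + 1), and 0 to 2 with 1 left out. In the difference between the experiments it was 2, and became 1 with a minimum mean of 50 and with log2(FPKM + 1), and 0 to 2 with 1 left out. In bESCs it stayed at 0 under all settings run. The minimum mean of 50 and log2(FPKM + 1), with its minimum of 0.5 FPKM, remove NOTCH1 and NOTCH3 from the test in blastocysts, as leaving out DMSO blastocyst 2 does for NOTCH1. Where other settings changed a count, the cause was not tested. An unchanged count need not hold the same genes. In cell2_LY, HES1 passed in 9 of 18 settings, NOTCH3 in 15 of 16 that tested it, and NOTCH2, with a lower estimate, in 2 of 18. The value for NOTCH3 is a description only, since it reached the minimum for testing through cell2_LY. Where a group is left with 1 library, that library is assumed to vary like the other groups.

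The replicate block changed none of these counts (1, 2, 0, 1 and 0), with NOTCH1 at -3.12 and an adjusted p of 0.178. Same-numbered libraries deviated together in bESCs (correlation 0.789) but not in blastocysts (-0.117 to 0.168 and -0.232 to 0.121), and no label ties the numbers to a shared source. With the block, 1276 genes had an unadjusted p below 0.05 in bESCs in place of 16, and NOTCH1 was at -0.26 (SE 0.057, adjusted p = 0.00284).

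Over all genes, 884 rose and 1213 fell in LY10, against 1074 and 879 with quantile normalization. Of 45 values of Notch genes not past the threshold, 25 kept their sign under every setting and 38 never passed it. The 2 or 3 blastocysts per group and the few reads of NOTCH1, NOTCH3 and DLL1 limit what these comparisons can show.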
